A study of Mus musculus with 6 samples.

Results

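The genes described here encode the subunits of the mitochondrial respiratory chain and ATP synthase that are carried in the nuclear genome. They were chosen by gene symbol (Ndufa, Ndufb, Ndufc, Ndufs and Ndufv with a number, Ndufab1, Sdha to Sdhd, Uqcr, Cyc1, Cox4 to Cox8 and Atp5) and by level, 10 or more normalized counts in 3 or more of the libraries. Of 92 rows with such symbols, 6 with pseudogene symbols and 2 named exceptions (Ndufa4l2 and Cox4i2) were left out, and 2 fell under the level threshold, which left 82 of the 16879 genes tested. Complex I had 36 of these genes, complex II 4, complex III 9, complex IV 16 and complex V 15. The remaining 2, Atp5s and Atp5sl, match the symbols but are factors named Dmac2l and Dmac2 in newer nomenclature, not structural subunits. All 82 genes were at 10 or more in all 6 libraries, with a lowest value of 80.0 (Cox7a1), so none passed through 1 genotype alone. The rows just under the threshold were Cox7b2, listed between 0.0 and 1.1, and Cox8c, listed at 0.0 in every library.

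Lungs of Col6a1-/- mice, which lack a working gene for the alpha 1 chain of collagen VI, were compared with lungs of wildtype mice. All animals were C57BL/6 mice of 6 weeks, and the tissue was right lung lobe taken after the vessels had been perfused. Each library held RNA of 2 animals of 1 genotype, with 3 such pools per genotype. Neither the animals' sex nor the kind of Col6a1 allele is given in the labels.

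The electron transport chain lies in the inner mitochondrial membrane. Complexes I (NADH dehydrogenase) and II (succinate dehydrogenase) pass electrons to ubiquinone, complex III passes them on to cytochrome c, and complex IV (cytochrome c oxidase) passes them to oxygen. Complexes I, III and IV pump protons, and complex V (ATP synthase) uses the gradient to make ATP. Mitochondrial DNA encodes a small set of subunits of complexes I, III, IV and V, while every subunit of complex II is nuclear. In lung, alveolar type 2 cells and ciliated cells are rich in mitochondria.

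The targeted gene, Col6a1, was at 19907.2, 18393.2 and 22330.5 normalized counts in wildtype replicates 1 to 3 and at 10034.4, 10615.8 and 9343.8 in the Col6a1-/- replicates. It was lower in every Col6a1-/- library (log2 fold change -1.01, SE 0.10, limma adjusted p = 0.00643), while transcripts of the gene remained counted. Each library held between 28055414 and 37904878 reads in genes. The surfactant gene Sftpc, which marks alveolar type 2 cells, was between 443498.3 and 583425.1 in all 6 libraries. The pools were not balanced for sex, since their levels of Y-linked transcripts differed. On a relative index of these transcripts, called male share below, wildtype replicates 1 to 3 scored 0.347%, 3.35% and 51.5%. Pools of Col6a1-/- animals scored 72.5%, 100% and 51.1%, in the same order. The index has its top value at Col6a1-/- replicate 2 and is not the proportion of males among the 2 animals of a pool. Because these are whole lobes, more cells of a type and more RNA per cell cannot be told apart.

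Subunit genes tended to be higher in the Col6a1-/- libraries by small amounts, and none passed the test over all genes. The estimate was higher for 75 of the 82 genes, beside 51.7% of all tested genes. Their median log2 fold change was 0.15, beside 0.010 for all tested genes, and it ran from -0.089 (Ndufs8) to 0.68 (Cox7a1). limma called 0 of the 82 at an adjusted p under 0.05 (0.0652% of all genes were called, in either direction), and the smallest adjusted p was 0.0893, for Cox6c. At an unadjusted p under 0.05, 21 were higher, beside 9.72% of all genes, and 0 were lower, beside 10.6%. No overlap between genotypes was seen for 21 genes, all higher in Col6a1-/-, where 10.7% of all genes lay wholly higher and 14.2% wholly lower. edgeR on the recovered reads likewise called 0 (0.077% of all genes). Of the 82, the authors' deposited table gave 6 with an adjusted p under 0.05 and a higher level, beside 1.87% of all genes in it, and 0 with a lower level, beside 3.18%. DESeq2 on the recovered reads repeats the authors' method on the same counts, so its result is not separate support. It named the same 6: Cox6c, Ndufa4, Atp5j, Cox7a1, Cox7b and Ndufc2, again with 1.87% of all genes called higher.

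**Figure D1:**
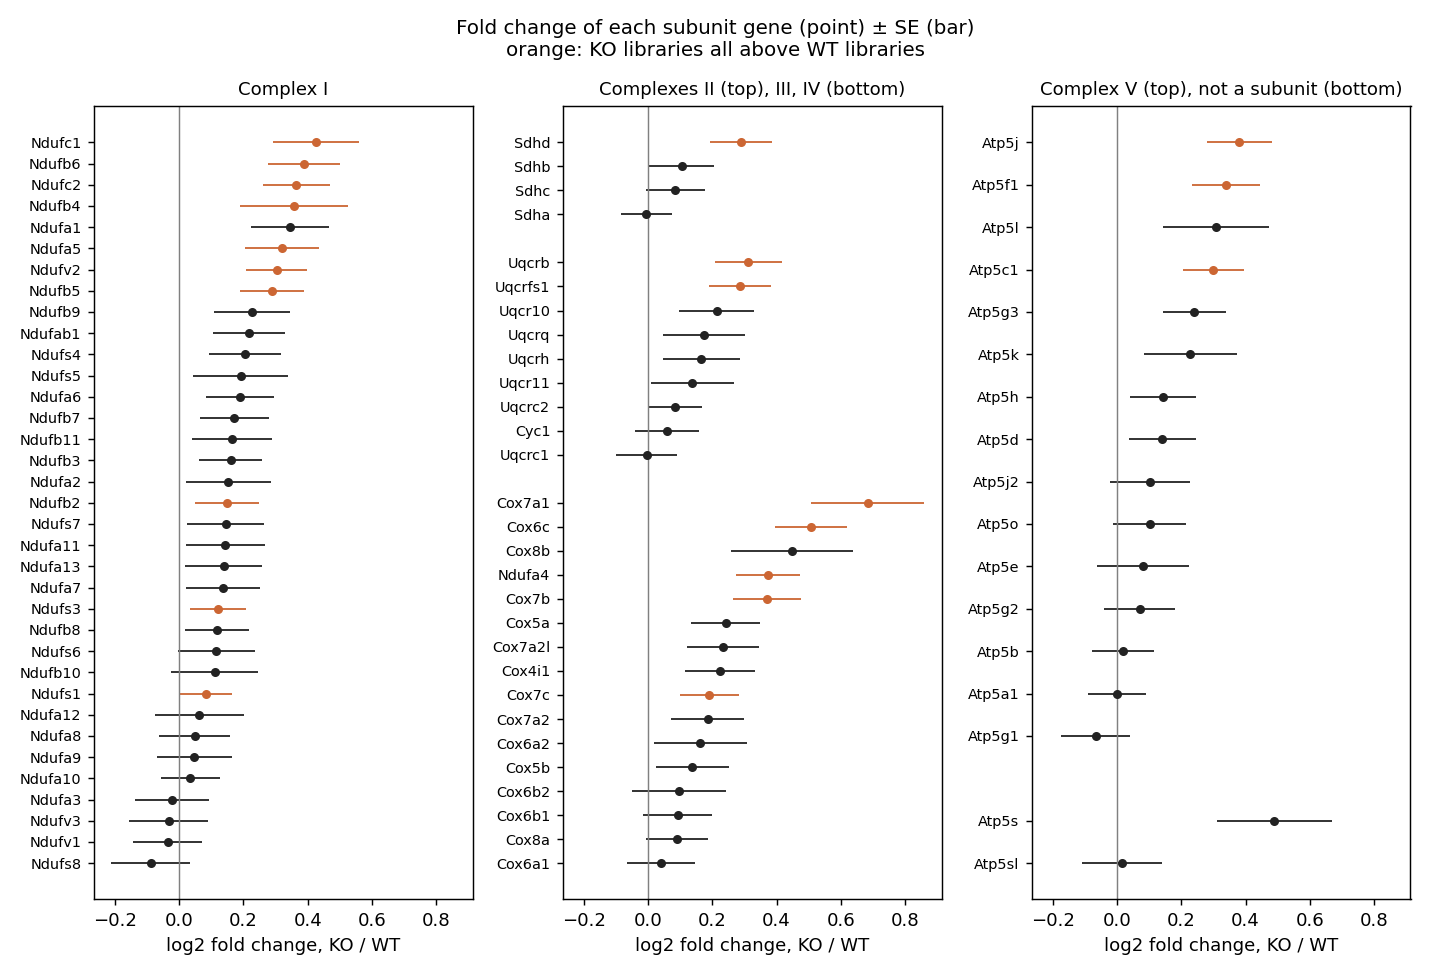
The log2 fold change of 81 of the 82 genes (Col6a1-/- over wildtype, horizontal axis) is drawn as a point with its SE as a bar, by complex. Orange marks the 21 genes whose 3 Col6a1-/- libraries were all above the 3 wildtype libraries, and 7 points lie below 0.

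The higher levels were those of Col6a1-/- replicates 2 and 3. Averaged over the 82 genes, the log2 level relative to the mean of all libraries was -0.047, -0.066 and -0.16 in wildtype replicates 1 to 3 and -0.068, 0.12 and 0.21 in Col6a1-/- replicates 1 to 3. Col6a1-/- replicate 1 thus lay within the wildtype range, and wildtype replicate 3 was the lowest library. Together the genes took 0.569%, 0.563% and 0.521% of all normalized counts in wildtype and 0.554%, 0.622% and 0.667% in Col6a1-/-. Replicate 3 of Col6a1-/- was the highest of the 6 libraries for 57 genes, and wildtype replicate 3 the lowest for 40. Replicates 2 and 3 of Col6a1-/- were both above all wildtype libraries for 61 genes, while replicate 1 lay within the wildtype range for 44 and below it for 15. Without Col6a1-/- replicate 3 the median of all 82 was 0.098, without wildtype replicate 3 it was 0.096, and without Col6a1-/- replicate 1 it was 0.24. Leaving out wildtype replicate 3 also let limma call 6 genes higher (Ndufb6, Cox7a1, Cox6c, Atp5j, Atp5f1 and Atp5s), in a fit that called 5.29% of all genes higher. With libraries weighted by quality, where wildtype replicate 3 had the lowest weight, limma called 20 higher, beside 9.89% of all genes.

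**Figure D2:**
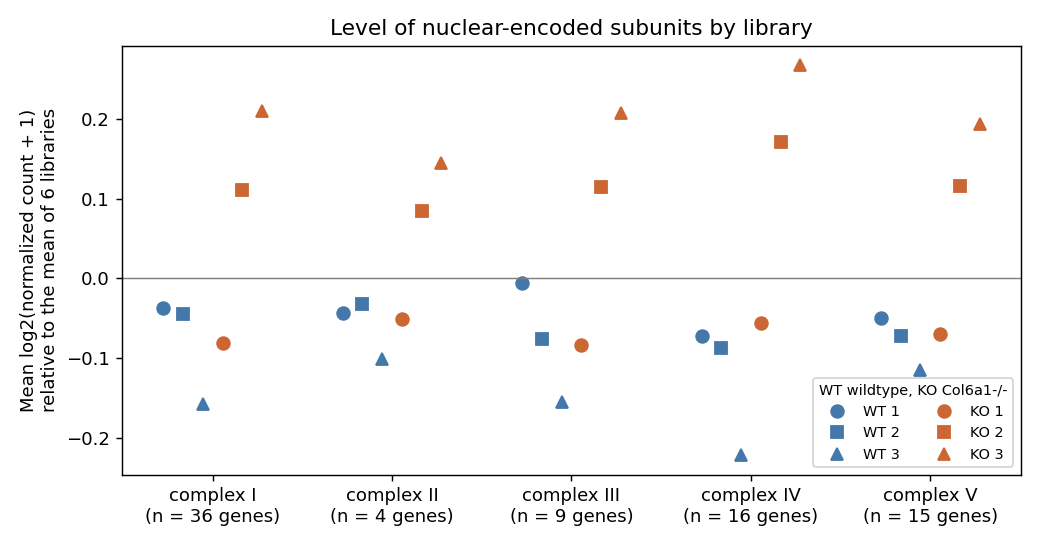
The mean log2(normalized count + 1) of the genes of each complex is shown per library, relative to the mean of the 6 libraries (vertical axis), with wildtype in blue and Col6a1-/- in orange. In each of the 5 complexes Col6a1-/- replicates 2 and 3 are the highest points, wildtype replicate 3 is the lowest, and Col6a1-/- replicate 1 lies among or just above the wildtype points.

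Subunit promoters are known for sites of the nuclear respiratory factor NRF1, of ETS-family factors such as GABP, and of YY1, so the promoter windows were searched for their letters. RefSeq windows on GRCm38.p6 (250 bases before to 50 after the start) were found for 69 of the 82 genes, and 6 of these had more than 1 window. The NRF1 letters searched were GCGCA, any base, then GCGC, the ETS letters were ACTTCCGG, and the YY1 letters were AA, any base, then ATGGCGG, each on both strands. NRF1 letters stood in the windows of 17 genes, which is 24.6% of them, against 10% of the tested genes with a window and 5.19% of all 27025 genes with one. YY1 letters stood in 7 genes (10.1%, against 3.17% and 1.59%) and ETS letters in 5 (7.25%, against 7.87% and 4.31%). The median log2 fold change was 0.14 for the 17 genes with NRF1 letters and 0.15 for the 52 without. A match is a description of the sequence and not a bound site. The 120 bases before the start are given below for 4 genes with NRF1 letters, for 1 with YY1 letters, and for 3 genes of the authors' 6 whose windows held no match. Matches are in capitals.
Sdha: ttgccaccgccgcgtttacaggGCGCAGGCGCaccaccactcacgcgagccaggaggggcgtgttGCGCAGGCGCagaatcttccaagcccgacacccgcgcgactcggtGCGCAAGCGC
Sdhd: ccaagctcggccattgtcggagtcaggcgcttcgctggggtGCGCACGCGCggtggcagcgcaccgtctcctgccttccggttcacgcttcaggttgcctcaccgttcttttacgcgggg
Ndufb4: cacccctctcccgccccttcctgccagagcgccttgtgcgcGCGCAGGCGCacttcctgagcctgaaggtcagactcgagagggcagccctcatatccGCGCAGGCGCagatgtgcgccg
Atp5c1: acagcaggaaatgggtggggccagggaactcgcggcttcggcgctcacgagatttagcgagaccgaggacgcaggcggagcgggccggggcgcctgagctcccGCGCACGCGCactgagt
Atp5j: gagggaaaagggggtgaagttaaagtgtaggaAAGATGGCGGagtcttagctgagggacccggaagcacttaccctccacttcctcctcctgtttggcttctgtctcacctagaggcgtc
Ndufa4: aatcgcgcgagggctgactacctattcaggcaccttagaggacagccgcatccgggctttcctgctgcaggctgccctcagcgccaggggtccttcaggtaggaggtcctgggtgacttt
Cox7b: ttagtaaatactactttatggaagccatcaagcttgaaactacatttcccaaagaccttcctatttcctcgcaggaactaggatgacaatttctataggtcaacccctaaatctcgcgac
Ndufc2: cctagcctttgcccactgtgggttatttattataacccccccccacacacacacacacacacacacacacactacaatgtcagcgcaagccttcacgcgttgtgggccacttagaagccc
These stretches lie at chr13:74350241-74350360 (minus strand), chr9:50603850-50603969 (minus strand), chr16:37654369-37654488 (minus strand), chr2:10080433-10080552 (minus strand), chr16:84834977-84835096 (minus strand), chr6:11907451-11907570 (minus strand), chrX:106015580-106015699 (plus strand) and chr7:97399883-97400002 (plus strand). In Sdha the 3 matches begin 98, 55 and 10 bases before the start, and the log2 fold change of Sdha was -0.006. The match in Sdhd, of the same complex, begins 79 bases before the start. Ndufb4 has matches that begin 79 and 22 bases before the start and one more, at 191 bases, outside the printed stretch. Atp5c1 and Atp5j each have 2 windows, and the one with the match is printed. The Atp5j stretch lies wholly within the annotated span of the gene (chr16:84827866-84835625), so it stands before an internal start. For 62 of the 69 genes with a window, a window continued into an annotated transcript on the same strand.

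Complex I is the entry point for electrons from NADH. It had a median log2 fold change of 0.15 over its 36 genes, with 32 higher estimates. Its 7 core subunits, which carry the flavin and the iron-sulphur clusters and are shared with bacteria, had a median of 0.082, and its 29 accessory subunits, which surround and stabilise the core, had 0.16. The difference between these medians was not tested. After removal of each library's smooth trend on length and GC content, the core median was -0.018 (-0.012 with the principal transcript) and the accessory median 0.082 (0.080).

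Among accessory subunits, Ndufc2 (chr7:97400003-97407802, plus strand) was the gene of complex I that passed the threshold in the authors' deposited table (adjusted p = 0.0488). Its normalized counts were 1149.6, 1252.6 and 1217.0 in wildtype and 1467.0, 1432.3 and 1778.4 in Col6a1-/-. Every Col6a1-/- library was above every wildtype library, and the log2 fold change was 0.36 (SE 0.10, limma adjusted p = 0.119). Its partner in the membrane arm, Ndufc1, was at 447.6, 503.9 and 507.3 against 536.1, 721.6 and 717.8. These libraries did not overlap either, and the estimate of 0.43 (SE 0.13, limma adjusted p = 0.134) was the highest of complex I. Ndufb6, another membrane-arm subunit, was at 568.1, 536.8 and 614.8 against 675.7, 740.2 and 841.7. It too was higher in all 3 Col6a1-/- libraries (0.39, SE 0.11, limma adjusted p = 0.12). However, 34.1% of its 50-base transcript windows are shared with Smim27, which overlaps it on the opposite strand, so its counts are uncertain. Ndufb4, whose promoter is printed above, was at 109.0, 142.7 and 130.7 against 144.4, 155.3 and 190.9. The lowest Col6a1-/- value stood just above the highest wildtype value (0.36, SE 0.17, limma adjusted p = 0.263). Of the Ndufb4 windows 37.0% are shared with other genes, so these counts are uncertain too.

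The estimates of the 7 core subunits ran from -0.089 to 0.30 on the log2 scale. Ndufv2, which carries an iron-sulphur cluster near the NADH site, was at 1564.0, 1468.8 and 1619.7 in wildtype and 1772.7, 1866.4 and 2113.3 in Col6a1-/- (log2 fold change 0.30, SE 0.095, limma adjusted p = 0.136). It was the core subunit with the highest estimate, and its libraries did not overlap, but with the length and GC trend removed it was at 0.023. Ndufs1, the large iron-sulphur subunit, was at 2101.9, 1948.5 and 2115.4 against 2190.0, 2184.6 and 2148.3, a log2 difference of 0.082. Its groups did not overlap although the means differed by little. Ndufs3 was at 0.12 and Ndufs7 at 0.15 on the log2 scale. Ndufv1, which binds NADH, was at -0.036, with overlapping libraries. Ndufs8, which carries iron-sulphur clusters on the way to ubiquinone, had the lowest estimate of all 82 genes. It was at 1486.1, 1477.6 and 1211.2 against 1160.4, 1265.1 and 1505.5, with overlapping groups (-0.089, SE 0.12, limma adjusted p = 0.706).

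Complex II oxidises succinate and is also an enzyme of the citric acid cycle. Its 4 genes had a median log2 fold change of 0.095, and the estimates differed by subunit. Sdhd, a membrane anchor that helps bind ubiquinone, was at 1853.7, 1966.1 and 2010.9 in wildtype and 2137.8, 2388.0 and 2617.1 in Col6a1-/-. These did not overlap, and the log2 fold change was 0.29 (SE 0.096, limma adjusted p = 0.15). Sdha, the flavoprotein that oxidises succinate, was at 7340.2, 7100.4 and 7035.6 against 7037.9, 7322.5 and 7029.6. The means were 7158.7 ± 160.5 and 7130.0 ± 166.7 (SD, n = 3), and the groups overlapped throughout. Sdhb, the iron-sulphur subunit, was at 0.10 and the second anchor Sdhc at 0.085, both with overlapping libraries.

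Complex III passes electrons from ubiquinol to cytochrome c. Its 9 genes had a median log2 fold change of 0.17, with 8 higher estimates. Uqcrb, a small subunit next to the quinone site, was at 1610.7, 1450.2 and 1734.0 against 1938.0, 1818.3 and 2198.3 (0.31, SE 0.10, limma adjusted p = 0.15). Its groups did not overlap, but 43.4% of its transcript windows also occur in predicted genes, and 1 of these, Gm10767, overlaps it on the opposite strand. Uqcrfs1, the Rieske iron-sulphur protein, was at 1511.0, 1516.0 and 1454.2 against 1615.4, 1920.0 and 1947.3 (0.29, SE 0.096, limma adjusted p = 0.153). Here replicate 1 of Col6a1-/- was close to the wildtype values and replicates 2 and 3 stood apart. Another catalytic subunit, cytochrome c1 (Cyc1), was at 0.058 on the log2 scale. The 2 core proteins Uqcrc2 and Uqcrc1 were at 0.084 and -0.005, with overlapping groups, and Uqcr10 was at 0.21.

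Complex IV had a median of 0.21, the highest of the 5 complexes in this fit, and all 16 estimates were higher. With the length and GC trend of the longest transcript removed its median was 0.051, below those of complex I (0.057) and complex II (0.070). With the trend of the principal transcript removed it was 0.106, again the highest of the 5. Of the 6 genes past the threshold in the authors' deposited table, 4 belong here. Cox6c (chr15:35925886-35938246, minus strand), a small subunit that spans the membrane, was at 1839.2, 1547.9 and 1919.9 in wildtype and 2222.9, 2632.9 and 2681.1 in Col6a1-/-. Its Col6a1-/- mean was 1.42 times the wildtype mean, without overlap (log2 fold change 0.51, SE 0.11, limma adjusted p = 0.0893). The adjusted p in the authors' deposited table was 0.00497. Of its transcript windows, 13.9% also occur in its near copy Cox6c2, so part of the count may belong to either gene.

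Ndufa4 (chr6:11900292-11907497, minus strand) was first assigned to complex I and is now known as a subunit of complex IV. It was at 2414.5, 2332.8 and 2391.3 against 2764.6, 3015.6 and 3511.8. The wildtype libraries were close together, at 2379.6 ± 42.1 (SD, n = 3), and all Col6a1-/- libraries were above them (0.37, SE 0.099, limma adjusted p = 0.108). In the authors' deposited table its adjusted p was 0.0289. Cox7b (chrX:106015700-106022450, plus strand), a small subunit needed for complex IV assembly, was at 1542.2, 1685.1 and 1584.9 against 1889.1, 1948.4 and 2417.2. It lay higher in every Col6a1-/- library, with replicate 3 well above the others (0.37, SE 0.11, limma adjusted p = 0.121, and 0.0467 in the authors' deposited table). The nuclear subunits Cox4i1, Cox5a and Cox5b, which surround the mitochondrially encoded core, were at 0.22, 0.24 and 0.14, each with overlapping libraries.

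**Figure D3:**
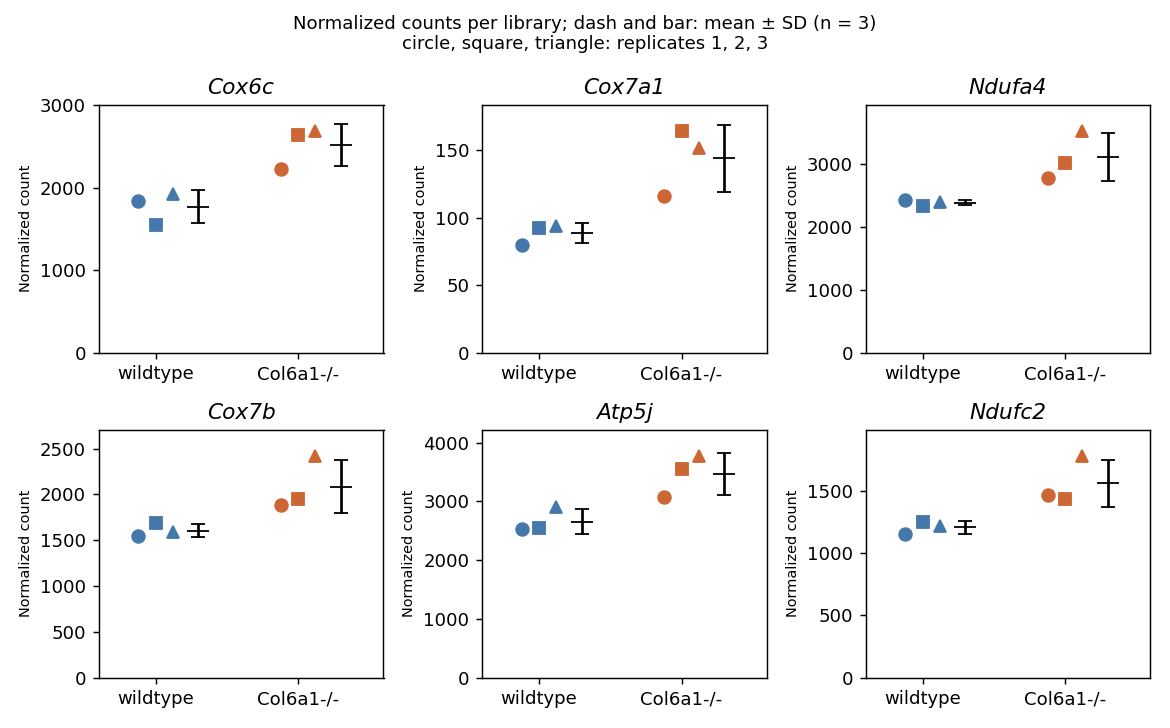
Normalized counts (vertical axes, from 0) are shown per library for the 6 genes past the threshold in the authors' deposited table, with wildtype in blue, Col6a1-/- in orange, and mean ± SD of 3 libraries in black. In all 6 panels the lowest Col6a1-/- library lies above the highest wildtype library, by a gap that is narrow for Atp5j (3069.5 against 2898.7).

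Several complex IV subunits exist as a form made in most tissues and a form made in heart and skeletal muscle. The muscle form Cox7a1 (chr7:30184144-30186078, plus strand) was at 80.0, 92.2 and 93.9 in wildtype and 116.4, 164.0 and 151.9 in Col6a1-/-. This was the largest estimate among the 82 genes, without overlap (0.68, SE 0.18, limma adjusted p = 0.103, and 0.0431 in the authors' deposited table). Per kilobase of transcript, Cox7a1 made up 6.58%, 7.61% and 8.61% of Cox7a1 and Cox7a2 together in wildtype and 10.1%, 11% and 10.1% in Col6a1-/-. Its counterpart Cox7a2, the form of most tissues, was at 0.19, and the related Cox7a2l, which takes part in supercomplexes of complexes III and IV, at 0.23, both with overlap.

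For the other muscle forms the picture was less clear. Cox8b was at 136.0, 105.4 and 85.2 against 130.8, 156.4 and 152.9 (0.45, SE 0.19, limma adjusted p = 0.222). Wildtype replicate 1 was above Col6a1-/- replicate 1, so the groups overlapped, and the common form Cox8a was at 0.089. Cox6a2 was at 533.8, 533.5 and 427.9 against 487.9, 518.3 and 674.8, where replicate 3 of Col6a1-/- alone stood above wildtype. Its share of Cox6a1 and Cox6a2 per kilobase was 10.5% ± 0.316 in wildtype and 11.4% ± 1.29 in Col6a1-/- (SD, n = 3), a difference smaller than the spread in Col6a1-/-. The log2 fold change was 0.040 for Cox6a1, 0.092 for Cox6b1 and 0.096 for Cox6b2, a form known from testis, all with overlap.

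Transcripts of cardiac muscle, which in mice also sheathes the large pulmonary veins, were present in all libraries. All 16 markers of cardiac muscle were measured, and 15 had a higher estimate, with a median of 0.40. Their summed normalized counts ran from 20532.7 to 26849.6 in wildtype and from 27978.1 to 30680.7 in Col6a1-/-, without overlap. None of the defining markers was at 0, and Myh6, the atrial and adult myosin heavy chain, was between 5967.7 and 9218.4. Of the markers, 11 lay wholly higher in Col6a1-/-, beside 10.7% of all genes, and limma called 0 of them. The authors' deposited table called 6 of the 16 higher, beside 1.87% of all genes in it. With the length and GC trend removed their median was 0.41, and limma called Myh6 (0.48, adjusted p = 0.0437), Myl4 (0.54, adjusted p = 0.0459) and Mybpc3 (0.55, adjusted p = 0.0455) higher, in a fit that called 0.152% of all genes higher. In Col6a1-/- replicate 1 the cardiac sum (27978.1) was above every wildtype library, of which replicate 1 was the highest (26849.6). Cox6a2 and Cox8b in that library were below wildtype replicate 1, while Cox7a1 was above every wildtype library. For skeletal muscle 5 of 10 markers passed the level threshold, all with higher estimates, but Tnnt3 and Mylpf were at only 0.019 and 0.044. The summed list was at 683.5 to 768.4 against 788.9 to 970.9. Ckm was the largest part of it, at 354.3 to 400.9 against 429.3 to 519.4. Of the markers under the threshold, Myh1 (mean 9.1 against 6.4) and Myh2 (2.2 against 1.2) were lower. Acta1 (8.3 against 12.8) and Pvalb (0.6 against 1.7) were higher, and Myh4 was at 0. The part of muscle tissue in the values of the muscle forms was not tested. Without Cox6a2, Cox7a1 and Cox8b the median of the remaining 79 genes was 0.145.

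Complex V makes ATP. Its 15 genes had a median log2 fold change of 0.14, with 14 higher estimates. Stalks join its membrane and catalytic parts. Atp5j (chr16:84827866-84835625, minus strand), coupling factor 6 of the peripheral stalk, was at 2526.7, 2544.6 and 2898.7 in wildtype and 3069.5, 3557.9 and 3769.7 in Col6a1-/-. Its groups did not overlap (0.38, SE 0.10, limma adjusted p = 0.11, and 0.03 in the authors' deposited table). Its transcript windows are shared to 16.3%, and its exons overlap those of Gabpa on the opposite strand. Subunit b of the same stalk, Atp5f1, was at 3065.7, 3215.4 and 3720.6 against 3952.3, 3951.5 and 4750.4 (0.34, SE 0.11, limma adjusted p = 0.138). The gamma subunit of the rotating central stalk, Atp5c1, was at 3412.5, 3273.6 and 3622.8 against 3819.9, 4282.8 and 4612.4 (0.30, SE 0.094, limma adjusted p = 0.136). For both, every Col6a1-/- library was above every wildtype library. In 38.7% of its windows Atp5f1 shares sequence with other genes, so its counts are uncertain. Other stalk subunits had smaller estimates, at 0.14 for Atp5h and Atp5d, 0.10 for Atp5o and 0.081 for Atp5e. Atp5h shares 47.9% of its windows with other genes, and Atp5o 34.0%.

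The catalytic head showed nearly equal means. Atp5a1, the alpha subunit, was at 15368.8 ± 577.2 in wildtype and 15385.9 ± 990.1 in Col6a1-/- (SD, n = 3). Atp5b, the beta subunit that makes ATP, was at 17258.3 ± 1005.1 and 17494.4 ± 1211.1 (SD, n = 3). Both overlapped in full. Subunit c of the membrane ring is made from a family of genes, and these had log2 fold changes of -0.067 (Atp5g1), 0.070 (Atp5g2) and 0.24 (Atp5g3), all with overlap. The windows of Atp5g2 are shared to 87.4% with other genes, so its counts are uncertain. Atp5g3 was at 3063.6, 2956.3 and 3225.9 against 3202.7, 3871.7 and 3886.7, and only its replicate 1 of Col6a1-/- fell inside the wildtype range. Atp5s, which is no structural subunit, was at 168.2, 160.3 and 235.3 against 282.5, 216.5 and 287.9, with overlap (0.49, SE 0.18, limma adjusted p = 0.174). Atp5sl was at 0.015.

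Levels per kilobase of principal transcript placed complex V highest in wildtype, with a median of 2947.1 normalized counts per kilobase. Complex IV followed at 2315.6, complex III at 2216.1, complex II at 1684.9 and complex I at 1408.3. Single genes ranged widely within each complex, and the highest were Atp5b at 9007.5, Cox4i1 at 6773.0, Cox6a1 at 6237.3 and Atp5a1 at 6219.7. These levels depend on which transcript is taken as the gene's length.

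Fold changes among the 82 genes tended to be higher for shorter transcripts and for transcripts with less GC. Spearman's rho across the genes, which are not independent and share the same libraries, was -0.32 with principal transcript length and -0.37 with its GC content. The median principal transcript had 863 bases, against 2831.5 for all tested genes. When each library's smooth trend on length and GC of the longest transcript was removed, the median of the 82 became 0.051, with 58 higher estimates, and limma called 0. With the principal transcript, a setting chosen after the data were seen, it was 0.063, with 64 higher estimates. Cox7a1 stayed at 0.64 and 0.66 in these fits, Cox6c at 0.47 and 0.34, Atp5j at 0.29 and 0.31, and Ndufc2 at 0.25 and 0.24. Cox7b was at 0.061 and 0.040. Ndufa4 was at -0.009 with the longest and 0.14 with the principal transcript. Atp5f1 changed sign between them, at -0.17 and 0.25, and Uqcrb was at -0.060 and 0.007. When each pool's male share entered the fit as a covariate, the median of the 82 was 0.29, with 80 higher estimates and 0 calls by limma. That fit called 0 of all tested genes higher and 0 lower, so the absence of calls is not particular to the 82.

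**Figure D4:**
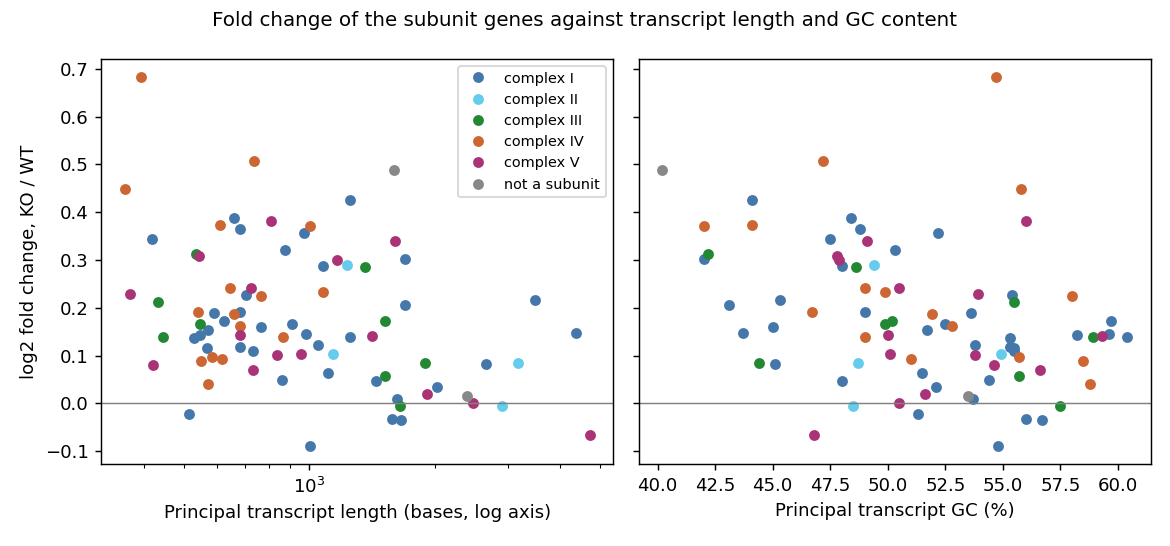
The log2 fold change of each of the 82 genes (vertical axes) is plotted against the length of its principal transcript in bases (left, log axis) and its GC content in percent (right), coloured by complex. The points lie higher on the left of both panels, with rho of -0.32 for length and -0.37 for GC.

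Shared sequence could move reads between these genes and others, since 47 of the 82 have at least 1 window of 50 bases in common with another gene. At least 25% of the windows are shared in 15. Windows were compared on both strands, so neighbours that overlap on the opposite strand are counted along with copies. The median log2 fold change was 0.153 for the 47 genes and 0.145 for the 35 without such a window. Exons of 25 genes overlap a gene on the opposite strand, and the sources used here do not say whether reads were counted by strand.

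Subunits encoded in mitochondrial DNA did not order the libraries as the nuclear ones did. Of the 13 genes, 7 passed the level threshold, and mt-Nd4l, mt-Co3 and mt-Atp8 were listed at 0 in every library. The others under it, mt-Nd3, mt-Co2 and mt-Atp6, were at 3.2 or less. In the same libraries mt-Co1, which like mt-Co2 and mt-Co3 belongs to complex IV, was between 114334.2 and 227123.0. The reason for the low values was not tested. The sum of the 13 is nearly that of the 7 and does not measure the others. The 13 summed to 354790.2, 325255.0 and 605559.6 normalized counts in wildtype and 680046.6, 570214.7 and 632910.3 in Col6a1-/-. Wildtype replicate 3, the lowest library for nuclear subunits, was thus within the Col6a1-/- range here. All 7 estimates were higher, with a median of 0.61, and limma called 0. In the authors' deposited table mt-Nd4 (complex I) and mt-Cytb (complex III) had adjusted p of 0.0165 and 0.0197. mt-Nd4 was at 42431.4, 37628.4 and 63617.6 against 69376.0 to 72351.1, with no overlap. With the length and GC trend removed the median of the 7 was 0.10 (0.027 with the principal transcript). In that fit mt-Nd4 turned from 0.61 to -0.063 (-0.13) and mt-Nd5 from 0.42 to -0.13 (-0.17), and mt-Cytb was at 0.15 (0.11).

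Assembly factors, which build the complexes without being part of them, had 0 limma calls, and their medians ran from 0.087 to 0.30. For complex I, 13 of 17 tested factors had higher estimates (median 0.10), and Tmem126a (0.62, SE 0.19, limma adjusted p = 0.126) and Ndufaf4 (0.46, SE 0.17, limma adjusted p = 0.179) had the smallest p. Tmem126a was at 239.9, 231.6 and 366.0 against 394.0, 377.2 and 500.8, without overlap, and its adjusted p in the authors' deposited table was 0.0426. For complex IV, 18 of 23 were higher (median 0.11), led by Cox20 (0.56) and Coa6 (0.55), whose Col6a1-/- libraries were all above wildtype. Medians were 0.23 over 4 factors of complex II (Sdhaf3 0.46, Sdhaf4 0.30), 0.087 over 6 of complex III (Ttc19 0.32, Uqcc3 0.24), and 0.30 over 5 of complex V (Tmem70 0.39, and Atp5s, which is also among the 82).

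Lists of neighbouring steps of respiration differed in their medians. The citric acid cycle had 9 higher estimates of 16 and a median of 0.012, with Sucla2 (0.31) and Ogdh (-0.25) at the smallest p. Carriers and other entry points for electrons had 9 of 15 and a median of 0.088, led by Etfa (0.31) and Coq3 (0.30). The adenine nucleotide and phosphate carriers and porins, which exchange ATP and metabolites across the membranes, had 6 of 6 and a median of 0.17. Slc25a4, the ATP/ADP exchanger of heart and muscle, was at 5325.5, 5278.1 and 5178.7 against 5944.9, 6676.3 and 7037.6, without overlap (0.31, SE 0.089, limma adjusted p = 0.118, and 0.0438 in the authors' deposited table), and Vdac3 was at 0.30. limma called 0 genes of these lists.

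Regulators of respiratory genes had a median of 0.053 over 14 tested genes. Pprc1, a coactivator of the PGC-1 family that works with nuclear respiratory factors, had a lower estimate. It was at 1850.6, 1801.4 and 1598.4 in wildtype and 1287.2, 1210.4 and 1107.6 in Col6a1-/-, with all Col6a1-/- libraries lower (-0.54, SE 0.098, limma adjusted p = 0.0693). In the authors' deposited table its adjusted p was 0.000726. With the length and GC trend removed it was at -0.38 (limma adjusted p = 0.0459, called lower). Polrmt, the RNA polymerase of mitochondrial DNA, was at -0.27 (limma adjusted p = 0.189), also without overlap.

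Markers of other cell types that the lobes hold were read in the same libraries. Red cell genes had higher estimates for 9 of 9, with sums of 45021.9 to 51149.7 in wildtype and 65991.9 to 106928.9 in Col6a1-/-, and fat genes for 10 of 11, with sums of 5933.8 to 11192.0 and 11627.3 to 16488.4. Of 6 brown fat markers 2 passed the level threshold, and Ucp1 was at 1.0 to 4.4. Club cell genes were higher for 4 of 4 (median 0.40) and ciliated cell genes for 6 of 6 (median 0.20). Estimates were lower for 7 of 8 alveolar type 2 genes (median -0.15), 5 of 6 endothelial genes (median -0.19), 6 of 6 alveolar macrophage genes (median -0.29) and 5 of 6 fibroblast genes (median -0.11). Alveolar type 1 genes had a median of 0.009. Library sums overlapped between the genotypes for ciliated, alveolar type 2, alveolar type 1, fibroblast and brown fat genes. limma called 0 genes on these marker lists. The authors' deposited table called 8 of 9 red cell genes, 2 fat genes, 1 club cell gene and 1 fibroblast gene higher, beside 1.87% of all genes in it. It called 1 alveolar type 2, 2 endothelial and 2 alveolar macrophage genes lower, beside 3.18% of all genes. With the length and GC trend removed, limma called Hba-a2 higher (0.65, adjusted p = 0.0455), and Ear2 (-0.39, adjusted p = 0.0455) and Atp6v0d2 (-0.42, adjusted p = 0.0437) of the macrophage list lower. That fit called 0.152% of all genes higher and 0.341% lower. These marker lists were not tested as groups, and their part in the level of the subunit genes was not tested.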

How the data were processed

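RNA of 6 pooled mouse lung samples (3 per genotype, 2 animals each) was sequenced. The submitters' processing notes name the build GRCm38.p5 and the tools STAR 2.5.2b, featureCounts (Subread 1.5.0p3), DESeq2 1.16.1 under R 3.4.1, and Trimmomatic 0.36. The deposited signal is a normalized count per gene that the authors made with DESeq2, as the deposited table's name says. The header of wildtype replicate 2 carries the added word New, with no explanation in the labels. The authors' deposited table of the comparison holds a mean and a test statistic (each a score), a log2 fold change, and p-values before and after adjustment.

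Genotypes were compared by limma 3.58.1 (limma-trend, R 4.3.3) with no covariate. The test was two-sided, on log2(normalized count + 1), and p was adjusted by Benjamini-Hochberg over 16879 genes at 10 or more in at least 3 libraries and a threshold of 0.05. Fold changes on this scale understate those of low genes. Dividing by 1 step per library gave whole reads for 100% of values (tolerance 1e-06), and these served depth, edgeR 4.0.16 and DESeq2 1.42.0 as alternatives. On them edgeR called 3 genes higher and 10 lower, and DESeq2 275 and 467. SE is that of the limma coefficient, and SD is over 3 libraries. All other alternatives (pseudocounts, filters, scalings, weights, each library left out, replicate block, male share, length and GC trend) stand in the closing section. The limma script was tested on simulated data.

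Named were genes called by limma, edgeR, DESeq2 or the authors, in each complex the 3 with the smallest p and the extremes, catalytic subunits, isoform families, genes near the level threshold, and of each pathway list the 2 with the smallest p. Ndufb4 and single markers were added after their values were seen, to show a promoter or a list. One gene that this rule names is left out of the text. The members and lists were chosen with earlier results of these data known. Positions, transcript lengths and exons are from GENCODE M21 on GRCm38 (1 gene matched through a RefSeq synonym), and promoter windows are from RefSeq on GRCm38.p6.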

Additional observations from a re-analysis of the deposited data

How the results depend on the processing

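In most of the settings tried 0 of the 82 subunit genes were called in either direction, among them the replicate block (0 higher, 0 lower). The exceptions were all in the higher direction. DESeq2 on recovered reads called 6, beside 1.87% of all genes. Library quality weights gave 20, beside 9.89%, and leaving out wildtype replicate 3 gave 6, beside 5.29%. At a threshold of 0.1 there was 1, and the share of all genes was not counted. Leaving out any other library gave 0. With the male share, without Col6a1-/- replicate 3 or without wildtype replicate 1, 0 of all genes were called in either direction. Deviations of same-numbered libraries from their genotype means had correlations of -0.14, 0.11 and -0.006. With 3 libraries per genotype these cannot show whether same-numbered pools share a batch, and the main fit treated the libraries as unpaired. The replicate block called 1 gene higher and 6 lower over all genes.

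The median log2 fold change stayed above 0 in every setting for the 82 genes and for each whole complex, but not for the core subunits of complex I, which were at -0.018 with the length and GC trend removed. With the male share as a covariate it was 0.289 over the 82, 0.285 for complex I, 0.215 for complex II, 0.323 for complex III, 0.373 for complex IV and 0.243 for complex V. With the length and GC trend removed, alone or with the replicate block, it was 0.010 for complex III, 0.051 for complex IV and 0.028 for complex V. It was 0.057 for complex I and 0.070 for complex II. With the principal transcript's trend removed the medians were 0.059, 0.072, 0.070, 0.106 and 0.047 for complexes I to V, so the order of the complexes depended on the transcript taken. With 1 library left out, the median ran from 0.095 to 0.236 for complex I, 0.040 to 0.162 for complex II, 0.044 to 0.283 for complex III, 0.141 to 0.314 for complex IV and 0.065 to 0.236 for complex V. Each of these ranges had its highest value without Col6a1-/- replicate 1.

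Of 441 values for 21 single genes under alternatives, 26 changed sign, 24 passed the threshold that the main value missed, and 391 did neither. The sign changes with the trend removed, alone or with the replicate block, were Atp5f1 -0.171, Ndufa4 -0.009, Uqcrb -0.060, Cox6a1 -0.050 and Uqcrc1 0.010. With the principal transcript's trend, added after seeing the data, Cox6a1 was at -0.037. With the male share as a covariate Atp5g1 was at 0.088, Ndufs8 at 0.212 and Uqcrc1 at 0.071. Quantile normalization gave 0.054 for Sdha and 0.050 for Uqcrc1, and library quality weights gave -0.010 for Cox6a1. With 1 library left out, Atp5g1 ran from -0.141 to 0.010, Cox6a1 from -0.040 to 0.130, Sdha from -0.025 to 0.012 and Uqcrc1 from -0.056 to 0.055. The cause of these changes was not tested. With 3 pools per genotype, differences of the size seen here lie close to the spread between pools, and groups of 3 were not searched for outlying libraries.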
